A study of Mus musculus with 2 samples.

Results

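Muscle stem cells of mouse were grown for 96 h in medium whose sugar was either galactose or a low level of glucose, and single cells from both media were sorted into the wells of 1 plate. Galactose wells were compared with low glucose wells as the plate's well sheet names them. A well was kept if it held 500 or more gene counts over 250 or more genes, which left 241 of the 456 kept wells of the whole series: 121 galactose wells and 120 low glucose wells. No well of these media was lost to that filter. Both media were DMEM with 1 mM pyruvate, and serum came from fetal calves (fetal bovine serum, 10%) and from horses (10%). Chick embryo extract at 0.05%, the growth factor bFGF at 2.5 ng/ml and penicillin/streptomycin at 1% were added to both. The low glucose medium held 5 mM glucose and the galactose medium held 10 mM galactose. The labels name no mouse strain, age, genotype or number of animals, and each medium is 1 set of wells in 1 library, so there is no replicate of either medium. The low glucose cells filled plate rows A to F and the galactose cells filled rows G to L, so medium and position on the plate cannot be told apart.

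Galactose enters metabolism through the Leloir pathway, whose enzymes, galactokinase among them, turn it into an intermediate that joins glycolysis. The route is slow, so cells in galactose medium are widely held to draw more of their energy from mitochondrial respiration than cells in glucose, and the swap is used as a way to make cultured cells rely on mitochondria. Muscle stem cells, also called satellite cells, are marked by Pax7 and leave quiescence in culture to become dividing myoblasts that express Myf5 and Myod1.

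RNA was counted per gene and well by CEL-Seq2, a single-cell method that tags the RNA of each well with its own barcode and reads transcripts next to their poly(A) ends. Levels are given as CPM, a gene's counts scaled to a common total of gene counts, of all kept wells of a medium added together (a pool), or of all wells of 1 plate row. The ratio of the pools carries a 95% exact interval that covers counting error only, not the variation between cells or between cultures. For genes that vary strongly between cells it is therefore too narrow. The 6 plate rows of each medium, with 17 to 22 kept wells each, show how far a level moves among wells of the same culture. They are not biological replicates, so no test of the medium was made and no p-value is given.

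The pools held 2035682 gene counts in galactose and 1734279 in low glucose, a ratio of 1.17. The row medians of gene counts per well ran from 11060 to 17886 in galactose and from 8156 to 17585 in low glucose, so they overlapped. All 241 well barcodes were distinct, and 200 of the barcode positions were also used on the other plate of the series. The 8 markers of muscle stem cells and myoblasts were all found, and at least 3 of them were counted in 106 galactose and 99 low glucose wells. Pax7, the factor that defines satellite cells, stood at 66.3 CPM in galactose and 54.8 in low glucose, and was counted in 52.9% and 46.7% of wells. Other cell types could be checked only in part. No well held 3 markers of an endothelial, fibro-adipogenic, smooth muscle, glial or mature muscle fibre cell, of which 4 of 9, 3 of 10, 6 of 8, 4 of 7 and 4 of 10 could be looked up. For immune cells (2 of 10), tendon cells (2 of 5) and erythroid cells (0 of 5) too few were looked up for a well to hold 3, so these types were not tested.

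RNA content per well did not separate the media. ERCC spike-in RNAs were counted beside the genes, and the number of gene counts per spike-in count serves as a measure of cellular RNA if every well received the same amount, which the labels do not state. Its median over wells was 47.8 in galactose and 47.7 in low glucose, a ratio of 1.002. The row medians ran from 39.4 over a median row of 49.9 to 53.5 in galactose, and from 39.4 over 46.9 to 56.5 in low glucose. The ranges of both media overlapped, with the highest row in low glucose.

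**Figure D1:**
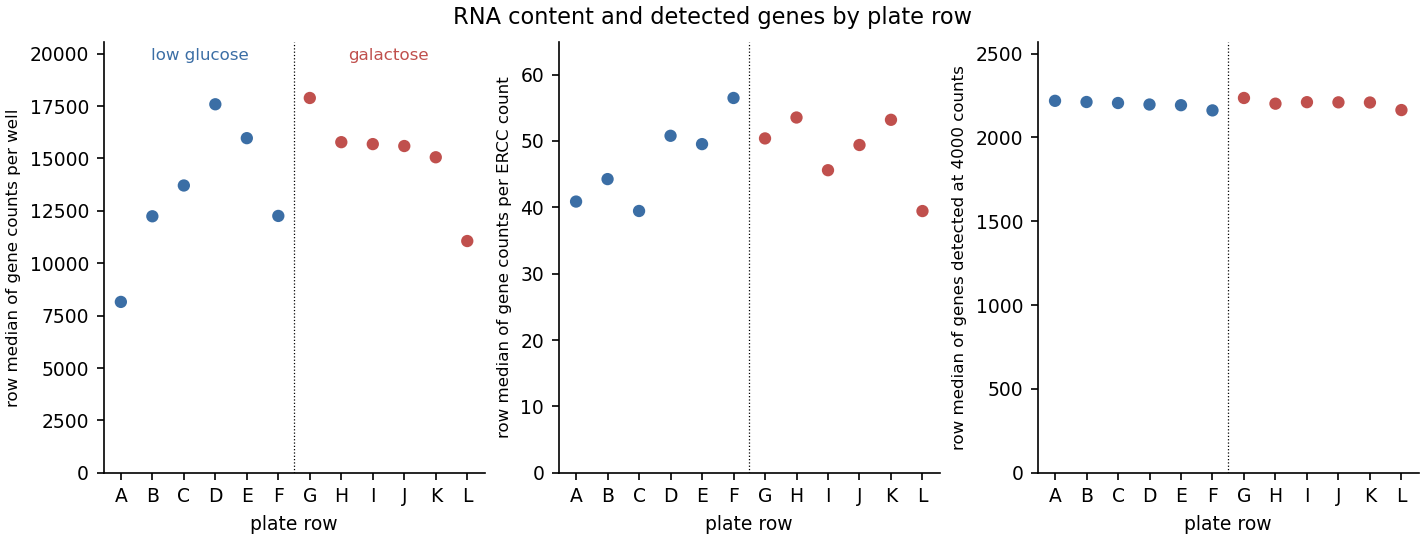
Row medians of gene counts per well (left), gene counts per ERCC spike-in count (middle) and genes detected after every cell was thinned to 4000 counts (right), for plate rows A to F (low glucose, blue) and G to L (galactose, red). In all 3 panels the rows of both media overlapped, with spike-in ratios of 39.4 to 53.5 in galactose and 39.4 to 56.5 in low glucose.

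Gene by gene, the pools of both media were nearly the same. Of 3997 genes with a mean of at least 50 CPM, 5 were at least 1.5-fold higher in galactose (0.125%) and 7 at least 1.5-fold lower (0.175%). The median log2 ratio of these genes, computed after adding 1 CPM to each level, was 0.01, and 90% of them lay between -0.28 and 0.30, which are the 5th and 95th percentiles. The counting interval of the ratio lay wholly inside 1.5-fold in either direction for 84.7% of the 3997 genes and wholly inside 1.25-fold for 29.6%. Among the 993 genes with at least 200 CPM, 80.7% had an interval wholly inside 1.25-fold and 99.5% inside 1.5-fold. For well-counted genes the depth therefore bounded the counting error of the difference between these pools, and for genes near 50 CPM it bounded it less tightly.

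The 5 genes that were at least 1.5-fold higher in galactose were Ifrd2, Prkx, Msrb3, Rfk and Ccl2. Ifrd2 binds ribosomes and is related to the interferon-related developmental regulators. Its rows ran from 47.9 over a median of 70.2 to 79.4 CPM in galactose and from 20.5 over 33.7 to 59.7 in low glucose. Of the 6 galactose rows, 4 lay above every low glucose row, and the pool ratio was 1.77 (interval 1.31 to 2.42). Prkx encodes a protein kinase of the cAMP-dependent kinase group. It ran from 49.5 over 65.2 to 101.1 CPM against 28.5 over 40.7 to 52.7, with 5 galactose rows above all low glucose rows and a ratio of 1.73 (1.28 to 2.35). Msrb3, a methionine sulfoxide reductase that repairs oxidised methionine, had a ratio of 1.66 (1.24 to 2.23) and 4 galactose rows above all low glucose rows. Rfk, the riboflavin kinase that makes FMN, had a ratio of 1.54 (1.18 to 2.01) and likewise 4 such rows.

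Ccl2, the monocyte chemoattractant, was the best counted of the genes that were at least 1.5-fold apart, with 709 counts in galactose and 401 in low glucose. Its rows ran from 181 over 274 to 522 CPM in galactose and from 159 over 224 to 301 in low glucose. Rows G and I, at 511 and 522 CPM, stood above all others, while the other 4 galactose rows lay inside the low glucose range. The pool ratio was 1.51 (1.33 to 1.71), and the 13 galactose wells and 12 low glucose wells richest in it carried 48.9% and 40.1% of its counts.

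Of the 7 genes that were at least 1.5-fold lower in galactose, only 3 encode proteins by the annotation: Gcc2, Trib1 and Ifrd1. Trib1 is a pseudokinase of the tribbles group that responds to growth factor signalling, and ran from 48.2 over 65.1 to 79.8 CPM in galactose against 56.6 over 106 to 122 in low glucose. Its ratio was 0.622 (0.492 to 0.784), and 2 galactose rows lay below every low glucose row. Ifrd1, a transcriptional co-regulator of the same family as Ifrd2, had a ratio of 0.639 (0.493 to 0.826) and 5 galactose rows below every low glucose row. Its highest galactose row, at 65.5 CPM, just passed its lowest low glucose row, at 64.5. The other 4 were the processed pseudogenes Gm12138 and Gm17669, the annotated miRNA gene Gm24098 and the rRNA entry CT010467.1. Reads of such entries can come from near-identical copies, so these 4 are uncertain.

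**Figure D2:**
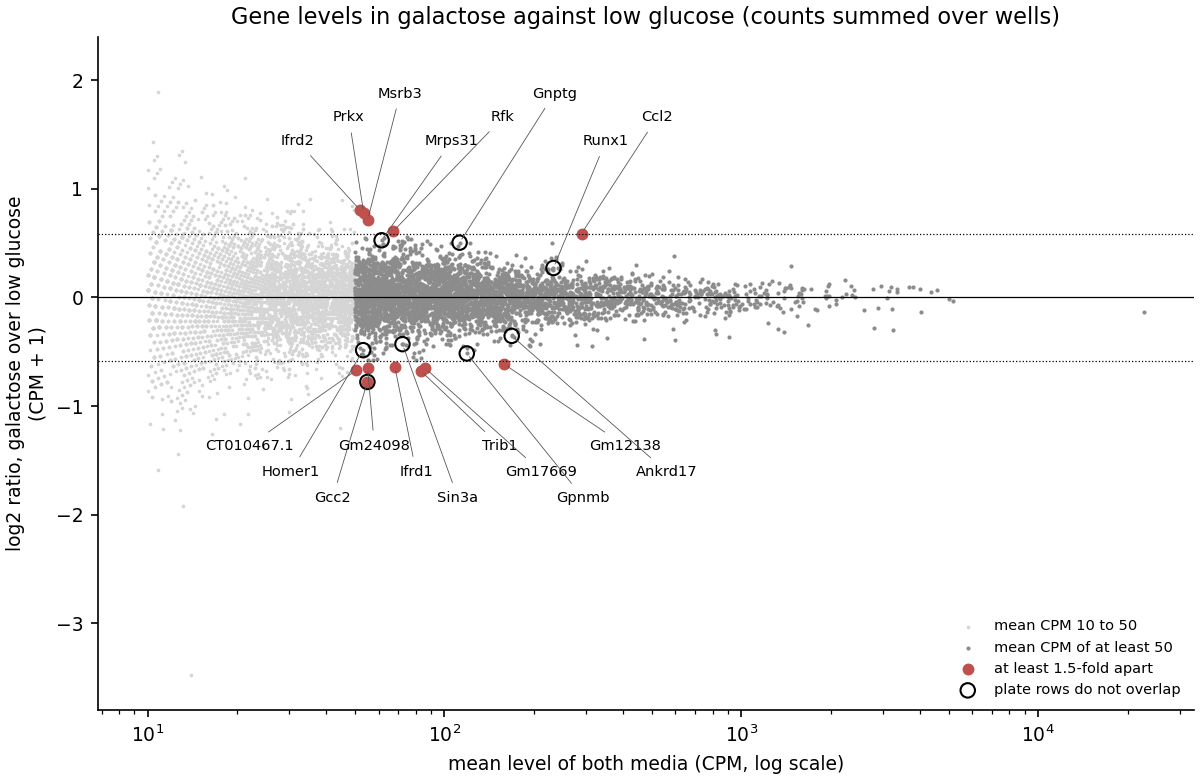
Log2 ratio of galactose over low glucose (pools of 121 and 120 wells, 1 CPM added) against the mean level of both media on a log axis, for 8689 genes with a mean of at least 10 CPM. Red points are the 12 genes with at least 50 CPM and at least 1.5-fold apart (dotted lines), and black circles the 8 genes whose plate rows did not overlap.

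Judged by plate rows instead of size, 3 of the 3997 genes had every galactose row above every low glucose row (0.0751%) and 5 had every galactose row below (0.125%). Among so many genes, some rows can separate fully through row-to-row variation alone. The genes are therefore named as a description, and an effect of the medium on them was not tested. The 3 higher genes were Mrps31, Gnptg and Runx1. Mrps31, a protein of the mitochondrial ribosome, ran from 56.94 over 72.8 to 83.3 CPM in galactose and from 34.8 over 52.7 to 56.91 in low glucose, so its rows were apart by less than 1 CPM. Gnptg, a subunit of the enzyme that tags lysosomal enzymes with mannose 6-phosphate, ran from 122 over 131 to 141 CPM against 81.1 over 91.9 to 108, with a ratio of 1.42 (1.17 to 1.74). Runx1, a transcription factor that supports myoblast proliferation, ran from 241 over 250.04 to 308 CPM against 191 over 206 to 232, with a ratio of 1.21 (1.05 to 1.38).

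The 5 lower genes were Gcc2, Gpnmb, Homer1, Sin3a and Ankrd17. Gcc2, a golgin that tethers vesicles at the trans-Golgi network, was the one gene that met both rules. It ran from 28.5 over 36.4 to 55.9 CPM in galactose and from 56.8 over 70.3 to 82.7 in low glucose, with a ratio of 0.577 (0.431 to 0.77). Galactose was the higher medium for it in 6 of the 24 plate columns, each of which held wells of both media. Gpnmb, a membrane glycoprotein of lysosomes and melanosomes, ran from 77.5 over 99.3 to 108 CPM against 130 over 138 to 152, and had a ratio of 0.698 (0.576 to 0.845). Homer1, a scaffold protein, had a ratio of 0.71 (0.531 to 0.948). Sin3a, the scaffold of a histone deacetylase complex, had 0.74 (0.577 to 0.946), and Ankrd17, an ankyrin repeat protein, had 0.782 (0.666 to 0.917). Of these 8 genes, only Gcc2 was on a gene list, that of protein glycosylation and the Golgi.

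**Figure D3:**
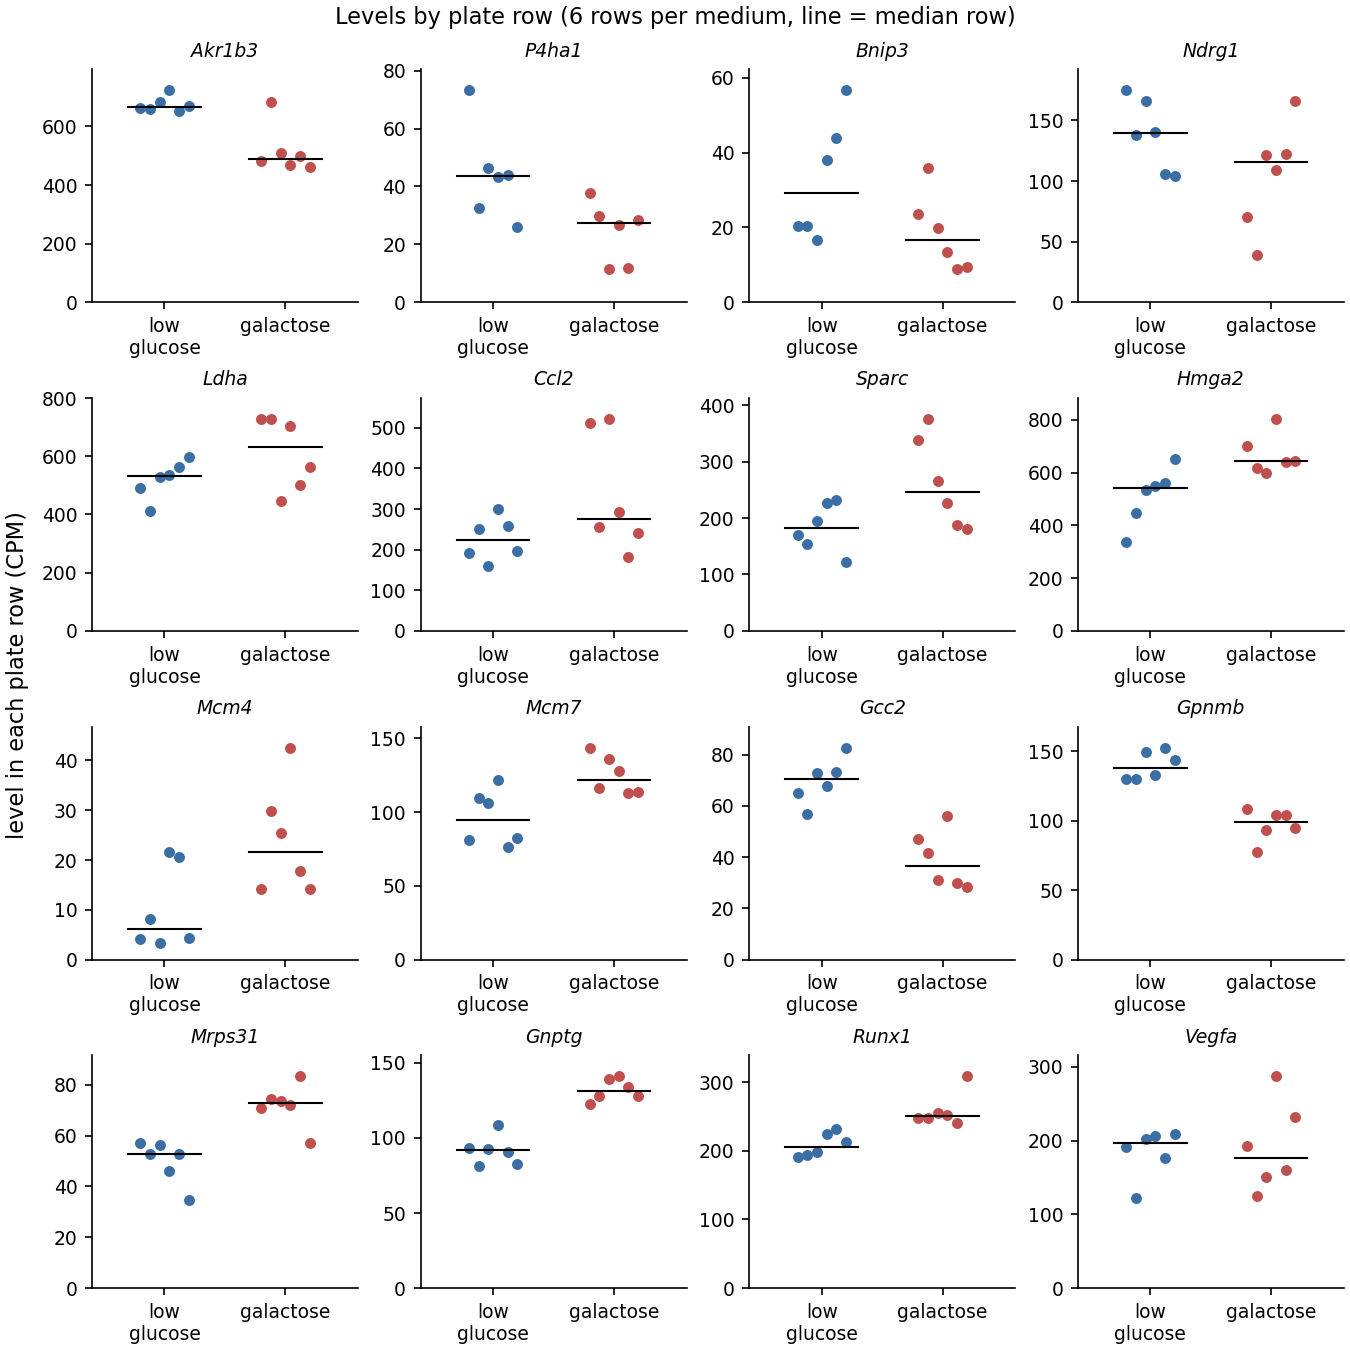
Level (CPM) of 16 genes in each of the 6 low glucose rows (blue) and 6 galactose rows (red), with a line at the median row. The rows of Gcc2, Gpnmb, Mrps31, Gnptg and Runx1 did not overlap, 1 galactose row of Akr1b3 lay among its low glucose rows, and the rows of the other 10 genes overlapped as well.

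Gene lists were described by their members with a mean of at least 10 CPM. Of all 8689 genes at that level, 133 were at least 1.5-fold higher in galactose with an interval that left out 1 (1.53%), and 109 were lower by that rule (1.25%). The interval alone left out 1 for 402 higher genes (4.63%) and 371 lower genes (4.27%), at any size of ratio. Log2 ratios were above 0 for 52.3% and below 0 for 47.7% of the 8689 genes, and their median was 0.01. The interval lay wholly inside 1.5-fold for 44.1% of the 8689 genes. That share rises with level, to 84.7% of genes with at least 50 CPM and 99.5% of genes with at least 200 CPM. These shares are the background for the counts below.

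**Figure D4:**
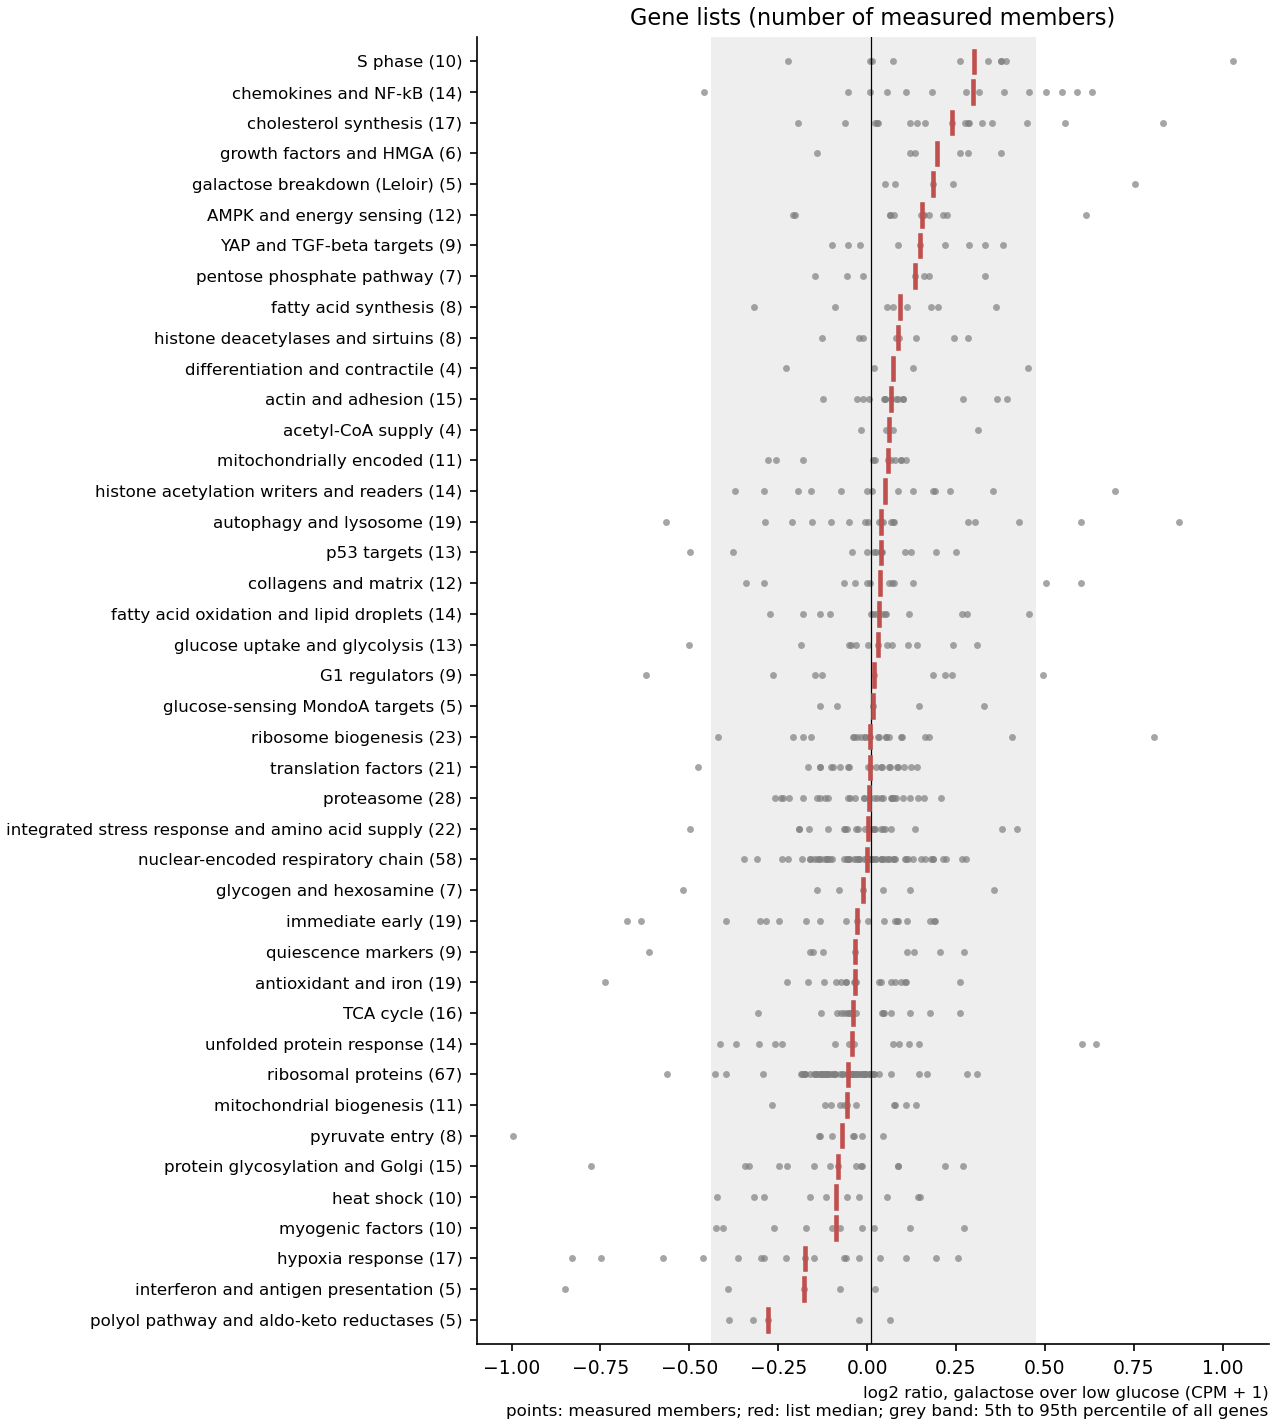
Log2 ratio of galactose over low glucose for the measured members (points) of the gene lists with at least 4 measured members, with the list median in red and the 5th to 95th percentile of all 8689 genes as a grey band. List medians ran from -0.28 (polyol pathway and aldo-keto reductases) to 0.30 (S phase), and those of the proteasome, translation factors and nuclear-encoded respiratory chain were between -0.01 and 0.01.

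The genes of galactose breakdown were low in both media, and their difference was not detectable at this depth. Of 8 Leloir genes looked for, 7 were found and 5 had at least 10 CPM. All 5 had a log2 ratio above 0, with a median of 0.19, but the interval of each ratio included 1. The list median stayed above 0 under the alternatives tried, from 0.09 to 0.42, but single genes did not: in cells thinned to 4000 counts the log2 ratio of Galk1 was -0.43 and that of Galt -1.31, with plate columns weighted equally that of Ugp2 was -0.02, and without row B that of Galm was -0.16. Galk1, the galactokinase, ran from 17.0 over 28.7 to 38.0 CPM in galactose rows and from 13.1 over 19.6 to 48.8 in low glucose rows, a ratio of 1.14 (0.749 to 1.76). Galt, the uridylyltransferase, had 15 counts against 7, and Galm, the mutarotase, 28 against 23. Thinning leaves fewer counts still, so no direction is read from the thinned values of such genes. Ugp2, which makes UDP-glucose, had a ratio of 1.19 (0.79 to 1.8). The galactose and low glucose rows of all 5 genes overlapped.

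Aldose reductase, which turns galactose into galactitol and glucose into sorbitol, was lower in galactose. Its gene Akr1b3 ran from 460 over 490 to 682 CPM in galactose and from 654 over 667 to 723 in low glucose. In 5 of 6 galactose rows it was below every low glucose row, and row H, at 682 CPM, lay inside the low glucose range. The pool ratio was 0.764 (0.702 to 0.83), and galactose was the higher medium in 6 of 24 plate columns. Its relative Akr1b8 had a ratio of 0.8 (0.665 to 0.962) and 3 galactose rows below all low glucose rows, while the aldehyde reductase Akr1a1 had 0.985 (0.885 to 1.1). Akr1b genes are similar in sequence, so counts may have been split between them. Of the 5 measured members of this list of 9, none was 1.5-fold apart and 2 had an interval below 1. Over all 8689 genes, 4.27% had an interval below 1.

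For glycolysis and glucose uptake, 13 of the 23 genes on the list were measured. The interval was above 1 for 3 of them and below 1 for 2, beside 4.63% and 4.27% of all 8689 genes. None of the 13 met the 1.5-fold rule with its interval, and the median log2 ratio was 0.03. The interval lay wholly inside 1.5-fold for 8 of the 13, beside 44.1% of all 8689 genes. Ldha, lactate dehydrogenase A, which makes lactate from pyruvate, was the member with the clearest higher level: 448 over 634 to 728 CPM in galactose rows against 414 over 532 to 596. The ratio was 1.18 (1.09 to 1.29), 3 galactose rows lay above all low glucose rows, and galactose was higher in 19 of 24 plate columns. Tpi1, triosephosphate isomerase, had a ratio of 0.702 (0.529 to 0.931), and Pkm, pyruvate kinase, 1.04 (1.00 to 1.08). The glucose transporter Slc2a1 had 1.1 (0.763 to 1.61). Txnip, whose transcription follows sugar phosphates, ran from 23.7 over 56.3 to 59.6 CPM in galactose against 40.7 over 54.8 to 69.7, a ratio of 0.942 (0.707 to 1.26).

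Nuclear genes of the respiratory chain showed no common direction. Among 58 measured nuclear genes of the respiratory chain, 29 had a log2 ratio above 0 and 29 below, and the median was -0.00. None was 1.5-fold apart, and 41 of the 58 had an interval wholly inside 1.5-fold, beside 44.1% of all 8689 genes. The summed level of that list was 7299 CPM in galactose and 7328 in low glucose, with rows from 6907 to 8057 and from 6998 to 7723. Atp5b, the beta subunit of ATP synthase, had a ratio of 1.01 (0.942 to 1.08). The 16 measured genes of the TCA cycle had a median of -0.04 and the 11 genes of mitochondrial biogenesis -0.06, with none 1.5-fold apart in either list. The mitochondrially encoded mt-Co1, a subunit of cytochrome oxidase, ran from 773 to 1543 CPM in galactose rows and from 841 to 1489 in low glucose rows, a ratio of 1.01 (0.953 to 1.08). Of 11 measured mitochondrially encoded genes, 8 had a log2 ratio above 0 and 3 below, with a median of 0.06. The interval was above 1 for 3 of them, beside 4.63% of all 8689 genes, and below 1 for none. Their summed level ran from 9718 to 13840 CPM in galactose rows and from 7415 to 14250 in low glucose rows, so the rows overlapped. Nuclear copies of mitochondrial genes are listed in the same table, so mitochondrially encoded levels are uncertain. Of 8 measured genes of pyruvate entry into mitochondria, 1 had a log2 ratio above 0 and 7 below, with a median of -0.07, and 1 had an interval below 1. This was Pdp1, the phosphatase that activates pyruvate dehydrogenase, with 19 counts against 34 and a ratio of 0.476 (0.257 to 0.859). Pdk4, which inhibits the same enzyme, had a ratio of 0.911 (0.766 to 1.08).

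On the hypoxia response list, 4 genes were lower in galactose by the interval and none was higher, beside 4.27% and 4.63% of all 8689 genes. This list holds targets of the hypoxia-inducible factors and the factors Hif1a and Epas1 themselves. The glycolysis list holds Ldha, which was higher by the interval and is not covered here. Of the 22 genes on the hypoxia list, 17 had at least 10 CPM. Of these, 13 had a log2 ratio below 0 and 4 above, with a median of -0.18. P4ha1, a prolyl hydroxylase of collagen synthesis, ran from 11.3 over 27.5 to 37.7 CPM in galactose and from 26.1 over 43.7 to 73.2 in low glucose, with 2 galactose rows below all low glucose rows and a ratio of 0.553 (0.38 to 0.8). Bnip3, a mitophagy receptor, ran from 8.93 over 16.6 to 35.8 CPM against 16.6 over 29.1 to 56.6, a ratio of 0.583 (0.378 to 0.891). The rows of both genes overlapped.

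Kdm3a, a histone demethylase, had a ratio of 0.667 (0.504 to 0.882) with 3 galactose rows below all low glucose rows. Ndrg1, a stress-responsive gene, ran from 38.7 over 115 to 166 CPM against 104 over 139 to 175, a ratio of 0.724 (0.597 to 0.876). Other members did not go with them: Vegfa, the vascular growth factor, had 1.03 (0.883 to 1.19), and Plod2, a lysyl hydroxylase, 1.14 (0.973 to 1.35). P4ha1 and Bnip3 met the 1.5-fold rule with an interval below 1, which is 2 of 17 measured members beside 1.25% of all genes. The row medians of the list, on a log2 scale relative to each gene's mean level, ran from -0.27 to 0.05 in galactose and from -0.16 to 0.15 in low glucose, so they overlapped.

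P4ha1 and Bnip3 were at least 1.5-fold lower, Kdm3a had an interval below 1, and the interval of Vegfa included 1. The promoters of these genes are shown to let the letters of the hypoxia response element be compared between them. Each runs 5′ to 3′ from 250 bases before to 50 bases after the start site, on the gene's own strand (RefSeq, GRCm38.p6), and where the table lists several promoters of a gene the first was taken. The positions are chr10:59323046-59323345 on the plus strand for P4ha1, chr7:138909457-138909756 on the minus strand for Bnip3, chr6:71632868-71633167 on the minus strand for Kdm3a and chr17:46032328-46032627 on the minus strand for Vegfa. Capitals mark ACGTG, the core of the element, or CACGT, the same core on the other strand.
P4ha1: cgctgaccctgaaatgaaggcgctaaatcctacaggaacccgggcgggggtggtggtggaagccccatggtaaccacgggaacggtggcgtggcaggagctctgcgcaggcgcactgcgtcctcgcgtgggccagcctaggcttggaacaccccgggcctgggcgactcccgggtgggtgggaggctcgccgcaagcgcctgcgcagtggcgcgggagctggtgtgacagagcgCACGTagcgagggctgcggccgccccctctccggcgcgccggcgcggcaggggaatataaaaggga
Bnip3: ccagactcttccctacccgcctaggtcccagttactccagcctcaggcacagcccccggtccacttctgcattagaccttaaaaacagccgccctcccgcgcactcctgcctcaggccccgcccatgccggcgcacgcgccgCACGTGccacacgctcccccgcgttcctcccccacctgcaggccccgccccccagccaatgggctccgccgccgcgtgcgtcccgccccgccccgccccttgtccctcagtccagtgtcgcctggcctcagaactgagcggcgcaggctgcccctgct
Kdm3a: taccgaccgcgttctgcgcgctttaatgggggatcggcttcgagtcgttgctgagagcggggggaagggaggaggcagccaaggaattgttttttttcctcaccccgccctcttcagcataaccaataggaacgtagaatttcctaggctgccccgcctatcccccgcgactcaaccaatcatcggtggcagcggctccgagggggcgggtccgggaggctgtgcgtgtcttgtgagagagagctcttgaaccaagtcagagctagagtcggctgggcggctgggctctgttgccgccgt
Vegfa: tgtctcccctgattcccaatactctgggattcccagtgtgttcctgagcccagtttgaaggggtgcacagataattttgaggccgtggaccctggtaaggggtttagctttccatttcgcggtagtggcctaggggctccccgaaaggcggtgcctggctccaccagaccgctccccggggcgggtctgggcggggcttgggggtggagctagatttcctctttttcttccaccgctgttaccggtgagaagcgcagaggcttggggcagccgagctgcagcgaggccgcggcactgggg

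The window of P4ha1 held 1 match, whose first letter is 16 bases before the start site, and that of Bnip3 held 2 overlapping matches, the first of them 108 bases before the start site. The windows of Kdm3a and Vegfa held none. Of the 3 promoters listed for Kdm3a and the 2 for Vegfa only the first was searched, and bases outside these windows were not. The absence of a match here is therefore not read as absence of the element. The promoter of Ndrg1, which also had an interval below 1, is not shown. The motif, on either strand, was in 19.7% of 27025 promoters of this length, 1 per gene, and in 28.8% of the 5519 promoters matched to genes with at least 10 CPM. It was in 10 of 16 promoters matched to the hypoxia list, or 62.5%, and in 9 of the 13 that belong to measured members. A match is a description of the letters and no evidence that a factor binds there.

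Among cholesterol synthesis genes, 2 of 17 measured members had an interval above 1 and none below, beside 4.63% and 4.27% of all 8689 genes. Of these 17, from a list of 21, 15 had a log2 ratio above 0, and the median was 0.24. Msmo1, a sterol oxidase, ran from 99.6 over 139 to 193 CPM in galactose and from 78.4 over 108 to 162 in low glucose, a ratio of 1.21 (1.01 to 1.45), with 1 galactose row above all low glucose rows. Idi1, the isopentenyl diphosphate isomerase, had 35 counts against 16 and a ratio of 1.86 (1.00 to 3.61), and was the 1 member that met the 1.5-fold rule with its interval. Hmgcs1, which makes the first committed intermediate, had 1.02 (0.772 to 1.36), and a log2 ratio of -0.67 in cells thinned to 4000 counts. The summed level of the list ran from 527 to 770 CPM in galactose rows and from 499 to 693 in low glucose rows, so the rows overlapped.

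Among S-phase genes, 3 had an interval above 1, beside 4.63% of all 8689 genes. Of 20 on the list, 10 had at least 10 CPM, 9 of these had a log2 ratio above 0, and the median was 0.30. The row medians of the list ran from -0.15 to 0.26 in galactose and from -0.36 to 0.01 in low glucose, so they overlapped. Mcm4, a subunit of the replicative helicase, ran from 14.1 over 21.7 to 42.6 CPM in galactose and from 3.32 over 6.23 to 21.7 in low glucose, a ratio of 2.13 (1.25 to 3.78) from 50 counts against 20. Of its galactose rows, 3 lay above every low glucose row. Mcm7, another subunit of the helicase, ran from 113 over 122 to 144 CPM against 76.2 over 94.4 to 122, a ratio of 1.3 (1.07 to 1.59), and galactose was higher in 19 of 24 plate columns. Pcna, the sliding clamp, had a ratio of 1.05 (0.94 to 1.18).

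Only 2 of 20 G2/M genes had at least 10 CPM, and Mki67 and Top2a were not analysed here. Gtse1, a microtubule-associated protein of that phase, ran from 181 over 198 to 214 CPM in galactose and from 61.0 over 158 to 211 in low glucose, a ratio of 1.32 (1.12 to 1.55). Tpx2, a spindle assembly factor, had 61 counts against 31, a ratio of 1.68 (1.07 to 2.67), but its log2 ratio was -0.07 once cells were thinned to 4000 counts. Their joint row median was the only one of all lists whose rows did not overlap, but it rests on 2 genes, each of which overlapped by itself. Cdkn1a, the p21 inhibitor of the cell cycle, had a ratio of 1.01 (0.967 to 1.06), and Ccnd1, cyclin D1, 1.18 (1.03 to 1.36), with a log2 ratio of -0.04 in thinned cells.

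Among chemokine and NF-kB genes, 12 of 14 measured members had a log2 ratio above 0, with a median of 0.30. The interval was above 1 for 5 members, beside 4.63% of all 8689 genes. These members were Ccl2, Cxcl1, Cxcl12, Nfkb1 and Birc3, of which the last 3 were picked out after their values were seen. In cells thinned to 4000 counts the log2 ratio of Cxcl12 was -0.10. Ccl2 and Birc3, an inhibitor of cell death induced by NF-kB, met the 1.5-fold rule with ratios of 1.51 and 1.57 (1.11 to 2.25). Cxcl1, a neutrophil chemokine, ran from 23.8 over 39.8 to 198 CPM in galactose and from 40.5 over 43.8 to 89.4 in low glucose. Its ratio of 1.47 (1.12 to 1.94) rested on rows I and G, at 198 and 94.2 CPM, which are also the highest rows of Ccl2, and 3 galactose rows were below all low glucose rows. Without row I the log2 ratio of Cxcl1 was -0.06. Nfkbia, the inhibitor that NF-kB itself induces, had 0.963 (0.858 to 1.08). The row medians of the list ran from -0.14 to 0.26 in galactose and from -0.42 to -0.03 in low glucose, so they overlapped.

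Of Pax7, Myf5 and Myod1, which define the myogenic state, only Myod1 had an interval that left out 1. Myf5 ran from 244 over 368 to 455 CPM in galactose and from 280 over 352 to 484 in low glucose, a ratio of 0.99 (0.89 to 1.1). Myod1 ran from 703 over 770 to 1114 CPM against 598 over 806 to 905, a ratio of 1.09 (1.01 to 1.17). Pax7 had a ratio of 1.21 (0.924 to 1.59), with 4 of 6 galactose rows above all low glucose rows. Myog, the factor of differentiation, was not analysed here, and Tnnt2, a troponin of early differentiation, had 94 counts against 58, a ratio of 1.38 (0.985 to 1.95). Id2, which inhibits the myogenic factors, was lower, from 136 to 256 CPM against 174 to 385, with a ratio of 0.743 (0.644 to 0.858), but its log2 ratio was 0.14 in cells thinned to 4000 counts. Among 10 measured myogenic factors none was 1.5-fold apart, and the median log2 ratio was -0.09.

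Hmga2, a chromatin protein of growing progenitor cells, was higher in galactose. It ran from 598 over 643 to 803 CPM in galactose and from 337 over 542 to 653 in low glucose, with a ratio of 1.3 (1.19 to 1.42). Of its galactose rows, 2 lay above every low glucose row, and galactose was higher in 20 of 24 plate columns. Its relative Hmga1 had a ratio of 1.1 (1.03 to 1.16). Sparc, a collagen-binding matrix protein, ran from 180 over 246 to 375 CPM against 122 over 183 to 232, a ratio of 1.42 (1.24 to 1.63), with 3 galactose rows above all low glucose rows and galactose higher in 19 of 24 columns. The rows of these 3 genes overlapped, as did the row medians of both lists they belong to.

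Of 67 measured ribosomal protein genes, 9 had an interval below 1 and 1 above, beside 4.27% and 4.63% of all 8689 genes. Among the 67 genes, 54 had a log2 ratio below 0, with a median of -0.05. The interval lay wholly inside 1.5-fold for 60 of the 67, beside 44.1% of all 8689 genes. Rplp0, a protein of the ribosomal stalk, had a ratio of 0.924 (0.888 to 0.962), and Rpl34 0.758 (0.654 to 0.878). The summed level of the list ran from 32742 to 43172 CPM in galactose rows and from 33546 to 41643 in low glucose rows. Ribosomal protein genes have many processed pseudogenes, so single genes of this list are uncertain. All 28 measured proteasome genes had an interval wholly inside 1.5-fold, as did 20 of 21 translation factors, beside 44.1% of all 8689 genes. Since that share was 99.5% among the 993 genes with at least 200 CPM, such counts follow level. For the integrated stress response, 11 of 22 measured genes were above 0 and 11 below. Its central factor Atf4 had a ratio of 0.996 (0.946 to 1.05), and Asns, its asparagine synthetase target, 0.874 (0.695 to 1.1), and a log2 ratio of 0.17 in thinned cells.

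To compare how many cells a gene was found in, each cell was thinned at random to 4000 counts, which left out 4 galactose and 9 low glucose cells with fewer counts. Detection, spread and the thinned log2 ratios all rest on the same random draw. The thinned cells held a median of 2211 detected genes in galactose (117 cells) and 2207 in low glucose (111 cells). The row medians ran from 2163 over 2209 to 2235 and from 2161 over 2201 to 2218, so the media could not be told apart by the number of genes per cell. Of 6408 genes found in at least 10% of the thinned cells of a medium, the exact 95% binomial intervals of the shares did not overlap for 10 genes found more often in galactose (0.156%) and 15 found more often in low glucose (0.234%).

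Some of these 25 genes were on a gene list, among them Akr1b8, Eci1 and Lamb1, found more often in low glucose, and Uap1, found more often in galactose. Of these, only Akr1b8 had a level interval that left out 1. The share of Lamb1 went against its level ratio of 1.05 (0.716 to 1.55), so no order is read from it. Akr1b8 was found in 30.8% (22.6% to 40.0%) of thinned galactose cells and 51.4% (41.7% to 61.0%) of thinned low glucose cells. Without thinning the shares were 69.4% and 73.3%. Btg3, an antiproliferative factor, was found in 34.2% (25.7% to 43.5%) against 55.9% (46.1% to 65.3%), or 79.3% against 83.3% without thinning. It had 299 counts in either pool, which is a level ratio of 0.852 (0.723 to 1.003). Among genes found more often in galactose, Yod1, a deubiquitinase, was in 43.6% (34.4% to 53.1%) against 22.5% (15.1% to 31.4%), or 74.4% against 64.2% without thinning, beside a level ratio of 1.17 (0.945 to 1.44). Eci1, Lamb1, Uap1 and Yod1 were picked out after their values were seen. Ccl2 was found in 65.8% (56.5% to 74.3%) against 48.6% (39.0% to 58.3%), and these intervals overlapped.

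Cell-to-cell spread at equal depth was also alike. It was measured by the Fano factor, the variance of a gene's thinned counts over cells divided by their mean, which is 1 for counting noise alone. Over 1727 genes with a mean of at least 0.5 thinned counts, its median was 1.12 in galactose and 1.13 in low glucose, and the row medians ran from 1.04 to 1.16 and from 1.06 to 1.125. The Fano factor was at least 1.5-fold higher in galactose for 40 genes (2.32%) and at least 1.5-fold lower for 50 (2.9%). Every galactose row was above every low glucose row for 4 genes (0.232%) and below for 5 (0.29%). As for levels, some rows can separate fully through row-to-row variation alone, so these genes are named as a description.

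The genes with more spread in every galactose row included Btg3, Eif4h and Nosip. Btg3 had Fano factors of 1.1 over 1.44 to 2.04 in galactose rows and 0.889 over 0.94 to 1.07 in low glucose rows. These factors come from the same thinned counts as its detection shares, so they are not a separate observation. Eif4h, a helper of the translation helicase, ran from 1.06 over 1.24 to 1.8 against 0.58 over 0.817 to 1.05. The 5 genes with less spread in every galactose row were Nob1, M6pr, Pip4k2c, Ftsj3 and Gm29216. Nob1, an endonuclease of ribosome maturation, ran from 0.667 over 0.799 to 1.09 in galactose and from 1.18 over 1.37 to 2.19 in low glucose. M6pr, a mannose 6-phosphate receptor, ran from 0.667 over 0.791 to 1.05 against 1.11 over 1.34 to 1.62. Gm29216 is a pseudogene and uncertain.

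The genes that varied most between cells were largely shared: 40 of the 50 with the highest Fano factor in galactose were among the 50 highest in low glucose. Hmox1, the stress-induced heme oxygenase, had Fano factors of 4.48 and 3.95 in galactose and low glucose, and Lgals3, a galectin, 4.96 and 3.66, both with overlapping rows of level. Ccn1, a matricellular target of YAP signalling, had 5.00 and 2.58, while its level had a ratio of 1.22 (1.16 to 1.29) with overlapping rows. Across whole profiles, the median Spearman correlation between the levels of 2 thinned cells was 0.331 within galactose, 0.328 within low glucose and 0.329 between a galactose and a low glucose cell. Cells of the same galactose row had a median of 0.332 and cells of other galactose rows 0.331. These pairs share cells and are given as a description only.

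**Figure D5:**
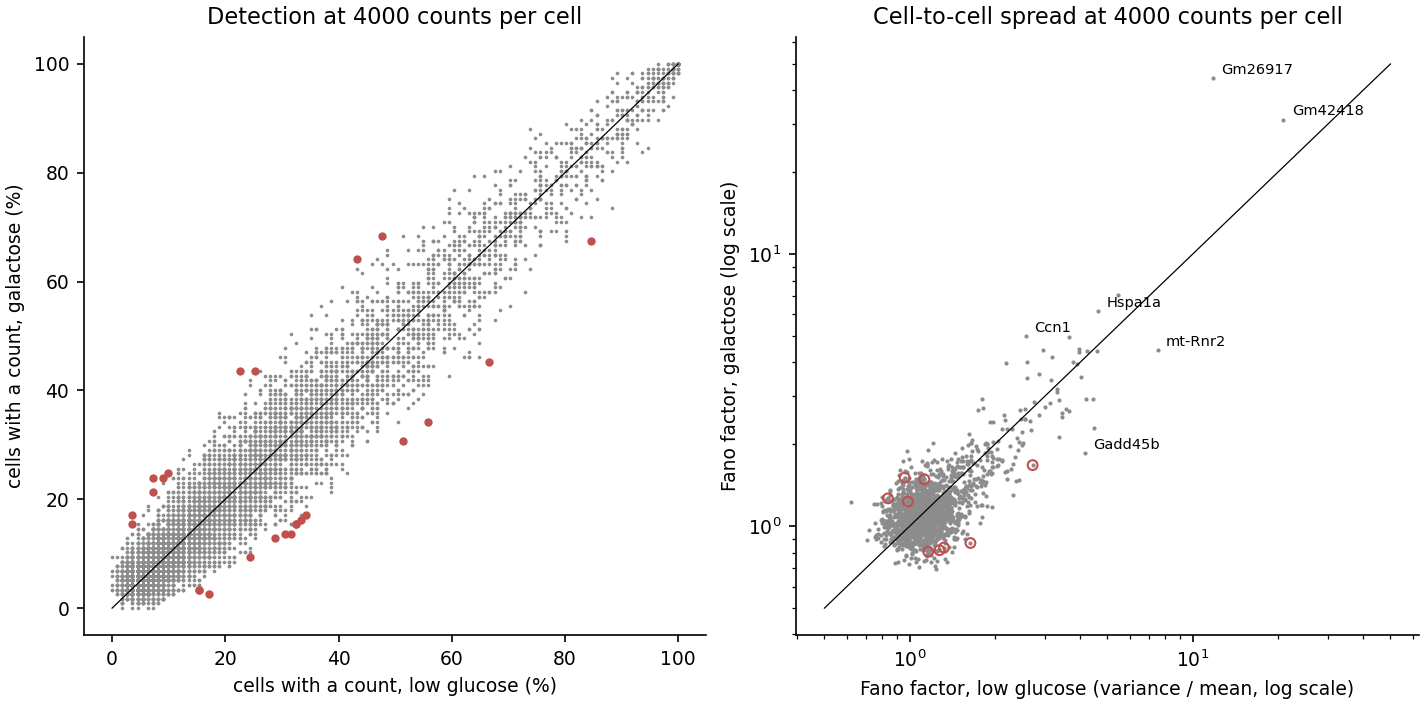
Left: percentage of cells with a count of each gene, galactose against low glucose, after thinning to 4000 counts per cell, with the 25 genes whose intervals did not overlap in red. Right: Fano factor of 1727 genes in both media on log axes, with the 9 genes whose rows did not overlap circled. Most points lie near the line of equal values in both panels, and the names mark genes of large spread.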

How the data were processed

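Single wells of 1 plate were compared by medium. The deposited tables hold whole-number counts per gene, per the file headers and values. The labels' protocols give a modified CEL-Seq2 protocol with a UMI of 6 bases, but for UMI collapse, aligner, genome build and annotation nothing is stated: not given in the sources used here. EdgeR appears in the submitters' processing notes, with no version and no stated use.

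Wells took their medium from the well sheet. Counts were summed per medium and per plate row and divided by the total gene counts, ERCC counts left out. Of 19325 gene identifiers, 19251 were given a symbol from a gene name reference or, where that held none, from GENCODE M21. The other 74 held 0.207% of the counts. Ratios carry exact conditional intervals (95%). Fixed thresholds were a ratio of 1.5 at a mean of 50 CPM, and 10 CPM for list members. Thinning drew 4000 counts per cell without replacement. The scripts were tested on simulated data. For the intervals and plate rows, the simulated cells of a medium varied by counting noise only. R 4.3.3 with edgeR 4.0.16 and DESeq2 1.42.0 gave scaling factors for the alternatives. Python 3.11.15, numpy 2.4.6, scipy 1.17.1 and pandas 2.3.3 did the rest.

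The text names protein-coding genes with at least 50 CPM whose rows do not overlap (up to 12 per direction), up to 5 genes per direction whose row Fano factors do not overlap, per list the 2 members with the most counts and the 2 whose interval bound is farthest from 1, a set always looked up, and, added to that rule, all genes at least 1.5-fold apart. The members, the 43 gene lists and this rule were chosen with earlier results of these data known. Of 899 different list genes, 783 were found. Alternatives covered scaling, thresholds, pseudocount, depth, plate columns and leaving out each plate row. Results for a few genes are not reported here.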

Additional observations from a re-analysis of the deposited data

How the results depend on the processing

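The counts of genes depended on the settings. Genes at least 1.5-fold higher and lower numbered 18 and 22 with equal weight per cell, 281 and 230 from 10 CPM, 1 and 0 from 200 CPM, and 157 and 140 in cells thinned to 4000 counts, which leaves fewer counts per gene. The higher genes numbered 11 with spike-in scaling and 15 with plate columns weighted equally. Without 1 plate row they ranged from 4 to 17 higher and 8 to 16 lower. Genes with rows apart numbered 7 higher and 3 lower with equal weight, 14 and 9 from 10 CPM and 1 and 0 from 200 CPM. They were 5 higher in wells with at least 4000 counts and 2 lower with spike-in scaling. Without 1 row they ranged from 6 to 14 in either direction, and leaving out a row makes separation easier by construction.

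In thinned cells the list median moved to -0.066 for glycolysis, -0.17 for MondoA targets, 0.37 for acetyl-CoA supply, -0.20 for histone acetylation, -0.073 for deacetylases, 0.13 for heat shock, -0.30 for fatty acid synthesis, 0.15 for autophagy, -0.021 for AMPK, -0.30 for myogenic factors, 0.034 for YAP targets and -0.045 for the proteasome. With equal weight it was -0.064 for deacetylases and -0.10 for differentiation. At 50 CPM it was 0.11 for quiescence markers, and with equal columns 0.042 for mitochondrial biogenesis and -0.0062 for interferon genes. Without 1 row the ranges were -0.023 to 0.21 for G1 regulators, -0.18 to 0.14 for quiescence markers and -0.45 to -0.0777 for interferon genes. The cause was not tested.

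In thinned cells 19 of 88 single genes changed the sign of their log2 ratio. Of these, Ccnd1 (-0.043), Cxcl12 (-0.10), Id2 (0.14), Lgals3 (0.21) and Tpx2 (-0.073) had an interval that left out 1 before thinning. The others did not, and Lamb1 (-1.83), Galt (-1.31), Hmgcs1 (-0.67), Galk1 (-0.43), Myf5 (0.28) and Asns (0.17) were the farthest from 0. Without 1 row, Cxcl1 ranged from -0.057 (row I) to 0.74 (row A), and Hmox1 was at -0.00047 without row A and -0.014 without row K. The median log2 ratio over all genes was 0.05 with spike-in scaling, the farthest from 0 of the scalings tried. The hypoxia median ranged from -0.28 to -0.07 over 22 alternatives, the cholesterol median from 0.11 to 0.28, the S phase median from 0.17 to 0.42 and the chemokine median from 0.18 to 0.35. The alternative without wells holding 3 markers of another cell type left nothing out, and for immune, tendon and erythroid cells it could not, since under 3 of their markers were looked up. No paired analysis was possible because the labels give no replicate numbers that pair the media. Plate columns hold wells of both media by position only, and gave the column values above. Cultures, animals and plate position were not replicated, and depth limits genes under 50 CPM.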

Other observations

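Genes of other pathways were also compared between the galactose and the low glucose wells. Among targets of YAP and TGF-beta signalling, which respond to stretch and matrix, 6 of 9 measured genes had a log2 ratio above 0, with a median of 0.15. The interval was above 1 for 4 of the 9, beside 4.63% of all 8689 genes. Ccn1 ran from 1140 over 1469 to 2115 CPM in galactose rows and from 914 over 1255 to 1706 in low glucose rows. Ajuba, a LIM protein of cell contacts, had a ratio of 1.31 (interval 1.06 to 1.61), with 3 galactose rows above all low glucose rows. Of 12 measured genes of AMPK and energy sensing, 10 were above 0 with a median of 0.15, but no interval left out 1. Camkk2, a kinase that activates AMPK, had 55 counts against 30, a ratio of 1.56 (0.984 to 2.52). The rows of these genes overlapped.

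Of 19 measured immediate early genes, which respond quickly to growth factors and stress, 9 were above 0 and 10 below. The interval was below 1 for 4 of them, beside 4.27% of all 8689 genes. Among 10 heat shock genes, Hspa8, a constitutive chaperone, ran from 497 over 505 to 583 CPM in galactose rows and from 515 over 625 to 947 in low glucose rows, a ratio of 0.818 (0.751 to 0.89). Hspe1, the mitochondrial co-chaperonin, had a ratio of 1.11 (1.00 to 1.23), with 4 galactose rows above all low glucose rows. In protein glycosylation and the Golgi, 11 of 15 measured genes were below 0. Stt3a, a catalytic subunit of the oligosaccharyltransferase, ran from 108 over 112 to 143 CPM against 134 over 143 to 192, with 5 galactose rows below all low glucose rows and a ratio of 0.793 (0.663 to 0.948).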
